A study of Oryza sativa with 6 samples.

Results

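Calmodulins and calmodulin-like (CML) proteins are the calcium sensors described here, as the mRNA levels of their genes in rice leaves. A list of 37 gene names, 5 calmodulins (CAM1-1, CAM1-2, CAM1-3, CAM2 and CAM3) and 32 CML genes (CML1 to CML32), was matched to the symbols and synonyms of RefSeq genes. Of these names, 31 were found, and they stand for 29 genes. The platform annotation gave 26 of these genes at least 1 probe set of their own, out of 17905 genes in all. They are 3 calmodulin genes with 3 probe sets and 23 CML genes with 28 probe sets. CML2, CML21 and CML22 matched no probe set, and CML6, CML12, CML19, CML23, CML25 and CML26 matched no gene by name, so these 9 were not analysed here.

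Each of the 2 groups held 3 arrays of leaf RNA from 30-day seedlings. XS11 is the rice cultivar Xiushui 11, labelled wildtype, and KMD is a transgenic line of the same cultivar. From general knowledge rather than the labels, KMD is a Bt rice, made insect-resistant with cry1Ab from Bacillus thuringiensis. It is 1 line, so an effect of the transgene and any other difference that the line carries cannot be told apart. The stated purpose was to find differing genes that could account for unintended effects in KMD. The arrays are labelled as biological replicates, and the number of plants behind each is not stated.

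Plant cells answer light, touch, cold, salt, wounding and pathogens with short rises of calcium in the cytosol. Calmodulin is a small protein whose EF-hands, loops that hold calcium, change its shape when calcium binds, and the loaded protein then switches on or off many enzymes, pumps, channels and transcription factors. CML proteins are plant relatives that also carry EF-hands but differ from calmodulin in sequence, and genes of this family often respond to stress more sharply than calmodulin genes do. In rice, CAM1-1, CAM1-2 and CAM1-3 encode the same protein, and RefSeq lists all 3 names as synonyms of 1 gene (LOC4324384, called CAM1 below). Any other gene encoding that protein was not analysed here, so the 3 calmodulin genes below need not be the whole family. Signal that related calmodulin transcripts give at the same probes cannot be told apart in these values.

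Values are MAS5 signals, an intensity on a linear scale that the authors deposited for each probe set and array. Differences were taken as KMD minus XS11 on the log2(signal + 11.17) scale, which understates changes of dim probe sets, and were tested with limma over 34404 probe sets with Benjamini-Hochberg adjustment. A gene was called at an adjusted p under 0.05. The filter on low signal lay at a signal of about 27.7, and 20 of the 26 genes passed it, all 3 calmodulins and 17 CML genes. No array read a tested gene below 29.98, so none of them passed through 1 line alone. Each gene is described by its brightest probe set unless another is named. Positions are left out, because the genome build behind the probe sets is not stated.

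The arrays were similar in overall level, with median signals of 35.5 to 38.7. Log2 signals correlated at 0.995 to 0.997 between arrays of the same line and at 0.974 to 0.976 between lines, over the tested probe sets. The leaf label was met by the leaf markers: RBCS, the small subunit of Rubisco, read 16012 in KMD and 16111 in XS11, and the light-harvesting gene CAB2R read 10429 and 10598 (means of 3 arrays). These 2 were not called, but of 11 tested leaf markers 5 were called lower in KMD and 1 higher, with log2 differences of -0.35 to 0.09. Over all tested genes 33.0% were called lower and 23.2% higher. Bright leaf markers called lower included RCA (log2 difference -0.18) and LFNR1 (-0.28). RBCS1, also on the leaf list, was below the filter at 19.5 in KMD and 15.5 in XS11. Over the 12 leaf markers on the array the summed signal was 83962 to 84718 in KMD and 87377 to 87646 in XS11. For 9 root markers it was 2151 to 2279 and 2464 to 2596, and none was at 0. Most of that sum came from TOM1, which read 1841 in KMD and 2061 in XS11 on average. TOM1, LSI1 (194 and 285) and IRT1 (42.2 and 64.9) were called lower in KMD, YSL15 and NRT2.2 were not called, and LSI2, IRT2, NAS1 and PHT1-6 were below the filter. For 7 seed markers it was 1125 to 1177 and 876 to 899, most of it from GLUA2. For 5 anther or pollen markers it was 88.8 to 98.8 and 90.6 to 95.02. Of 6 tested seed markers 3 were called higher in KMD and 0 lower, and RTS, the 1 tested anther or pollen marker, was called higher. In bulk leaf samples fewer cells of a type and less RNA per cell cannot be told apart, and the part of these marker differences in the results below was not tested.

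The control transcripts bear on every direction given here. Poly-A spike-ins are transcripts added to the RNA before labelling, and all 36 of their probe sets were higher in KMD on average, by a mean log2 difference of 0.62, while the median over all tested probe sets was 0.0017. Centring on them moved that median to -0.62. Every difference below is therefore relative to the bulk of each array, and a rise smaller than 0.62 on the log2 scale becomes a fall on the spike-in scale. Of 7 rice control pairs of 3′ and 5′ probe sets, the ratio of 3′ to 5′ signal was higher in every KMD array for 3, lower in every KMD array for 1 and overlapping for 3. For actin it was 5.64 to 5.91 in KMD and 4.30 to 4.88 in XS11 with one pair, and 8.75 to 9.48 and 8.69 to 9.61 with another. The part of these ratios in the results was not tested.

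With the bulk of the array as reference, the 3 calmodulin genes differed little between the lines. On the same reference the CML genes ran from clear rises to clear falls. On the spike-in scale CAM1, CAM2 and CAM3 stood at -0.66, -0.66 and -0.80, and all 3 were called lower. All 3 calmodulins were read by bright probe sets, and the median size of the CML differences, 0.19, was also that of all tested genes. This contrast between the families was not tested. Of the 20 tested genes, 5 rose, 5 fell and 10 did not pass the limma test. The 5 that rose were all CML genes (CML31, CML20, CML29, CML27 and CML13), and on the spike-in scale CML29, CML27 and CML13 turned to negative values. Those that fell were CML4, CML8, CML16, CML30 and the calmodulin gene CAM3. Read the same way, by the brightest probe set, 56.2% of 14790 tested genes were called, 23.2% higher and 33.0% lower. Over all 34404 tested probe sets the share was 39.7%, with 18.1% higher and 21.6% lower. The 10 of 20 called among the members are near these backgrounds, so the count of calls is not a result about the family.

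**Figure D1:**
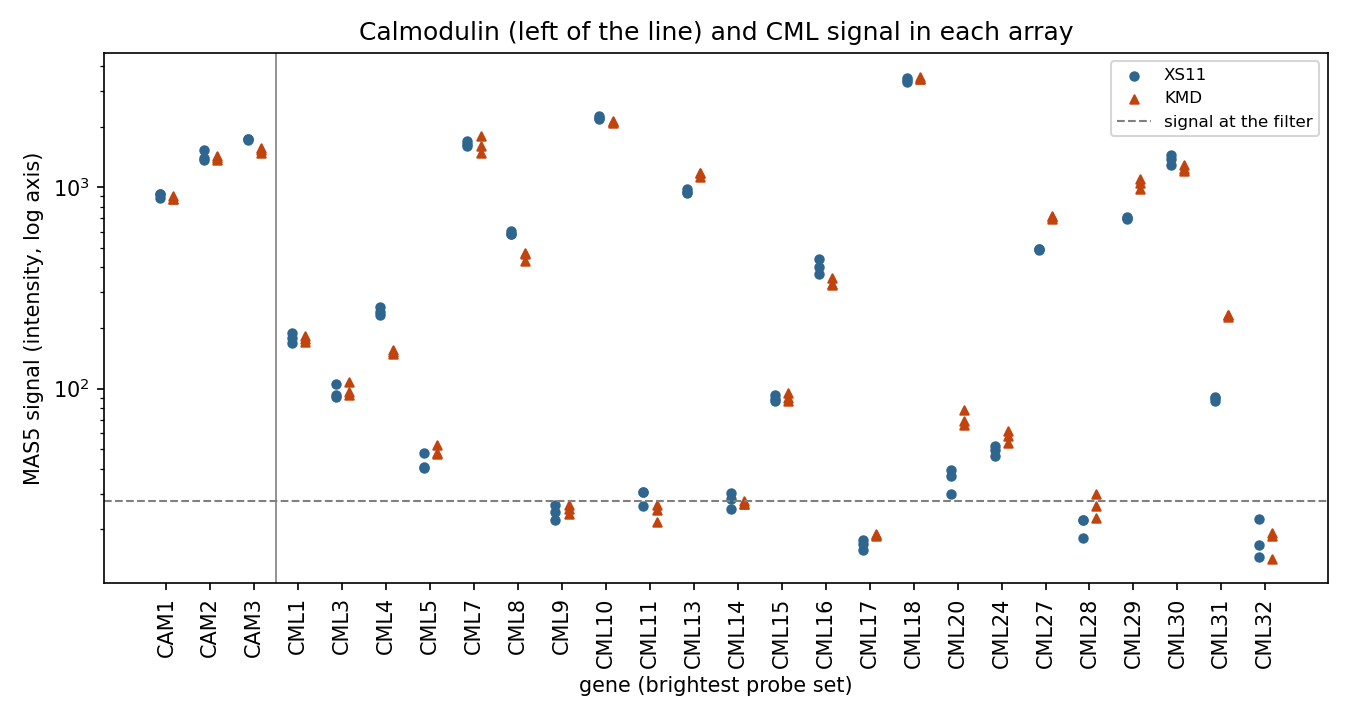
MAS5 signal on a log axis for the brightest probe set of each of the 26 genes, with 1 point per array (blue circles, XS11; orange triangles, KMD) and a dashed line at the filter on low signal (27.7). The 3 calmodulins sit between 874 and 1734 in every array, the CML probe sets spread from 14.3 to 3523, and the lines separate most clearly for CML31.

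The calmodulin genes were read at high and closely spaced signals. CAM1 read 874, 904 and 874 in the KMD arrays and 884, 927 and 921 in the XS11 arrays. CAM2 (LOC4339172) read 1402, 1423 and 1363 in KMD and 1365, 1537 and 1392 in XS11. For both genes the arrays of the lines overlapped. The log2 difference of CAM1 was -0.04 (SE 0.04, 95% interval -0.12 to 0.04) with a limma adjusted p of 0.41. That of CAM2 was -0.03 (SE 0.04, 95% interval -0.13 to 0.06) with a limma adjusted p of 0.60. Both intervals thus leave out changes beyond 0.13 on the log2 scale in either direction, as long as the bulk of the array is the reference. With quantile normalization both differences turned slightly positive, to 0.02 and 0.03, and were again not called.

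CAM3 (LOC4326903) was the 1 calmodulin gene called lower with the bulk of the array as reference. Its probe set read 1479, 1535 and 1572 in KMD and 1734, 1726 and 1717 in XS11, so each KMD array lay below each XS11 array. The log2 difference was -0.17 (SE 0.03), or 1.13-fold lower in KMD, with a limma adjusted p of 0.00097. It was called when each array was left out in turn, with differences of -0.19 to -0.15. After quantile normalization it was smaller, at -0.11 (limma adjusted p = 0.017). When limma tested it against 1.2-fold it was not called (adjusted p = 1).

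CML31 (LOC4325408) had the largest difference of the 20 genes. Its signals were 231, 227 and 231 in KMD and 90.5, 89.8 and 86.6 in XS11. The arrays of each line nearly coincide and the lines are far apart, with a ratio of raw means of 2.58. On the log2 scale the difference was 1.27 (SE 0.06, 95% interval 1.15 to 1.39), or 2.40-fold, with a limma adjusted p of 1.04e-09. On this scale it was the only one of the 20 genes past 2-fold. Of all tested genes read by their brightest probe set, 2.41% were called and at least 2-fold different in either direction. It also rose on the spike-in scale, by 0.64 (limma adjusted p = 7.01e-10), and no other member was called higher there. CML31 has 1 probe set of its own. Another probe set of the same cluster on the array has no gene in the annotation and read 31.1 to 35.4 in KMD and 26.4 to 28.6 in XS11, a log2 difference of 0.18 (SE 0.08) that was not called (limma adjusted p = 0.11).

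CML20 (LOC4330639) was dim and rose second most. It read 65.5, 77.99 and 69.2 in KMD and 39.3, 36.8 and 29.98 in XS11, with no overlap. Its log2 difference was 0.82 (SE 0.10, limma adjusted p = 1.27e-05), and the ratio of raw means was 2.00, which shows how the added 11.17 shrinks a change at this signal. On the spike-in scale the difference was 0.20 and was not called (limma adjusted p = 0.10).

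CML29 and CML27 rose by similar amounts at bright probe sets. CML29 (LOC4341908) read 985, 1093 and 1053 in KMD and 701, 707 and 692 in XS11, a log2 difference of 0.57 (SE 0.04, limma adjusted p = 1.60e-07). CML27 (LOC4332731) read 709, 719 and 695 in KMD and 487, 493 and 493 in XS11, a log2 difference of 0.52 (SE 0.04, limma adjusted p = 1.26e-07). Neither gene showed overlap between the lines. On the spike-in scale they stood at -0.05 and -0.10 and were not called. A second CML27 probe set read 10.2 to 18.02 across the 6 arrays and was below the filter, so the rise of CML27 rests on 1 of its 2 probe sets.

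CML13 (LOC4343922) rose least among the 5, and its direction depends on the reference. Its probe set read 1171, 1176 and 1129 in KMD and 977, 938 and 950 in XS11. The log2 difference was 0.28 (SE 0.04, limma adjusted p = 3.02e-05), and on the spike-in scale it was -0.35, called lower (limma adjusted p = 1.81e-05). This probe set is of the x_at type, which can take signal from related transcripts.

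CML4 (LOC4334072), whose overexpression has been linked to drought tolerance in rice, had the largest fall. Its brightest probe set read 148, 155 and 152 in KMD and 239, 231 and 253 in XS11, so the lines did not overlap. The log2 difference was -0.63 (SE 0.05), or 1.55-fold lower in KMD, with a limma adjusted p of 6.76e-07. A second probe set of CML4, of the s_at type, read 114, 114 and 130 in KMD and 201, 183 and 194 in XS11. Its log2 difference was -0.65 (SE 0.07, limma adjusted p = 3.36e-06), so both probe sets above the filter gave the fall. They come from the same cluster and may share probes. The third probe set read 7.72 to 10.6 across all arrays, under the 10th percentile of all values, and was not tested.

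CML8, CML16 and CML30 fell by smaller amounts. CML8 (LOC4348517), read by an a_at probe set that can cover several transcripts of a gene, stood at 432, 464 and 470 in KMD and 603, 588 and 588 in XS11. Its log2 difference was -0.37 (SE 0.04, limma adjusted p = 1.06e-05). An unnamed probe set of the same cluster read 38.2 to 46.4 in KMD and 38.6 to 45.6 in XS11 and did not show the fall (-0.01, limma adjusted p = 0.94). Next came CML16 (LOC4325693), with 327, 354 and 332 in KMD and 371, 400 and 439 in XS11 and a log2 difference of -0.25 (SE 0.06, limma adjusted p = 0.0040). The XS11 arrays of CML16 are spread more widely than its KMD arrays, and they still lie above them. CML30 (LOC4340272) read 1228, 1286 and 1199 in KMD and 1287, 1379 and 1438 in XS11. Its lines were separated by hardly more than 1 signal unit, between 1286 and 1287, and the log2 difference was -0.14 (SE 0.04, limma adjusted p = 0.020). The call of CML30 was lost without KMD replicate 1 (-0.14), KMD replicate 3 (-0.12), XS11 replicate 2 (-0.14) or XS11 replicate 3 (-0.11), with limma adjusted p of 0.056 to 0.084.

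**Figure D2:**
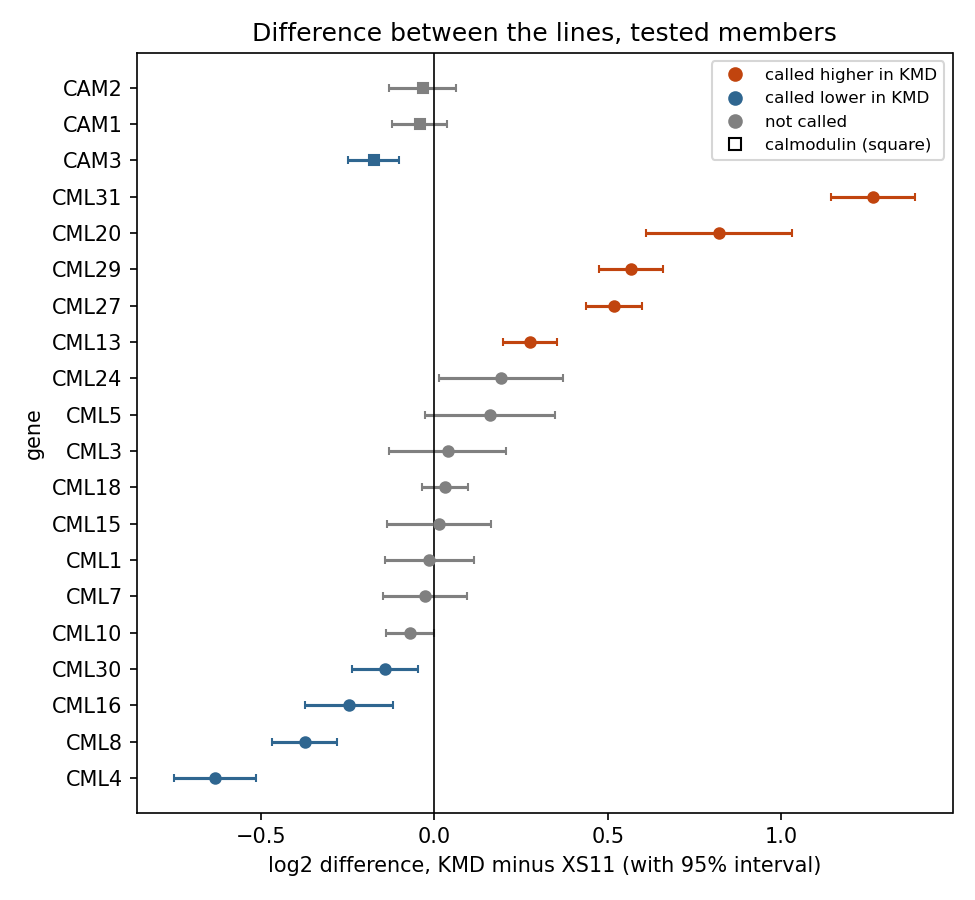
Log2 difference of KMD minus XS11 with its 95% interval for the 20 tested genes (squares, calmodulins; circles, CML genes; orange, called higher; blue, called lower; grey, not called). The intervals of CAM1 and CAM2 cross 0, CML31 stands alone at 1.27 and CML4 is lowest at -0.63; on the spike-in scale all points move down by 0.62, which puts CML13, CML27 and CML29 below 0.

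Besides CAM1 and CAM2, 8 tested CML genes were not called. CML18 (LOC9266860) was read by the brightest probe set of the list, at 3460, 3452 and 3523 in KMD and 3477, 3401 and 3339 in XS11. Its log2 difference of 0.03 (SE 0.03, 95% interval -0.04 to 0.10) had a limma adjusted p of 0.49, but after quantile normalization it was 0.10 and called higher (limma adjusted p = 0.020). CML10 (LOC4325762) read 2075, 2104 and 2124 in KMD and 2169, 2195 and 2256 in XS11. The lines of CML10 did not overlap, and the log2 difference of -0.07 (SE 0.03) did not pass, with a limma adjusted p of 0.10. Its other probe set was below the filter, at 22.4 to 25.7 in KMD and 15.2 to 18.2 in XS11, and lay the other way. CML7 (LOC4344525) varied most among the KMD arrays at this brightness, with 1475, 1793 and 1596, and its XS11 arrays, at 1610, 1639 and 1687, fell inside that range (log2 difference -0.03, limma adjusted p = 0.77).

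The other 5 genes that were not called had dimmer probe sets. CML1 (LOC4327351), a calmodulin relative with a long tail that can carry a lipid anchor, read 169 to 182 in KMD and 168 to 188 in XS11. CML3 (LOC4351420) read 93.1 to 108 and 91.1 to 105, and CML15 (LOC4338633) read 86.4 to 95.02 and 86.3 to 92.7. The lines overlapped for these 3 genes, with log2 differences of -0.01, 0.04 and 0.01. CML24 (LOC4344304) read 53.4 to 61.7 in KMD and 46.1 to 52.0 in XS11, without overlap, and its log2 difference of 0.19 (SE 0.08) missed the threshold (limma adjusted p = 0.086). CML5 (LOC4352729) read 47.2 to 52.5 and 40.1 to 47.7, a log2 difference of 0.16 (limma adjusted p = 0.17). An s_at probe set of CML5 below the filter lay the other way, at 18.2 to 27.3 in KMD and 29.9 to 34.6 in XS11, so the probe sets of this gene disagree.

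CML3 shares its cluster number on the array with CIPK32, the gene next to it in the RefSeq order. CIPK32, a kinase of the CBL-interacting family, read 1407 to 1478 in KMD and 1813 to 1916 in XS11, a log2 difference of -0.35 (SE 0.04, limma adjusted p = 3.24e-06). Another of its probe sets read 42.7 to 43.0 and 31.4 to 40.03 (0.22, limma adjusted p = 0.069). Whether the CML3 probe set reads CML3 alone cannot be told from these values.

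The 6 CML genes below the filter were CML9, CML11, CML14, CML17, CML28 and CML32, with all their values between 14.3 and 30.5. Only CML17 (18.5 to 18.9 in KMD and 15.7 to 17.7 in XS11) and CML28 (22.7 to 29.9 and 18.2 to 22.2) kept the lines apart, and neither was tested. CML9 lies next to CAM2 in the RefSeq order, yet its probe set read 23.8, 25.2 and 26.4 in KMD and 26.3, 22.1 and 24.3 in XS11, close to the dim end of the array. Signals of different probe sets depend on their probes as well as on the transcript, so these levels give no order of transcript amounts between genes.

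Set side by side, the 3 calmodulins had mean signals over the 6 arrays of 897 to 1627, and none was below the filter. The 23 CML genes had mean signals of 17.6 to 3442 with a median of 159, and 6 of them were below it. The median log2 difference was -0.04 for the calmodulins and 0.03 for the 17 tested CML genes, against -0.03 for all genes read by their brightest probe set. Without regard to direction, the median size was 0.04, 0.19 and 0.19 in the same order. The log2 differences of the calmodulins ran from -0.17 to -0.03 and those of the CML genes from -0.63 to 1.27. Small differences were not particular to the calmodulins. Among CML genes with bright probe sets, CML7, CML10, CML18 and CML30 gave -0.03, -0.07, 0.03 and -0.14. CML13, CML27 and CML29, also bright, rose by 0.28, 0.52 and 0.57. A size of at least 0.5 was reached by 0 of 3 calmodulins and 5 of 17 CML genes, against 13.5% of genes at large. The lines did not overlap for 1 calmodulin and 11 CML genes, and 65.6% of all tested genes did not overlap. With 3 calmodulin genes, no difference in spread between the families was tested.

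A ratio taken within an array depends little on how arrays are scaled to each other, apart from the added 11.17, which weighs on dim genes such as CML20, CML24 and CML5. The mean log2 signal of the 3 calmodulins was therefore subtracted from each CML gene in the same array. On this measure 8 of the 17 tested CML genes lay higher in all KMD arrays than in any XS11 array (37% of all tested genes did), and 3 lay lower (27.7%). Together these are 11 of 17, or 64.7%, and over all tested genes the share was also 64.7%. Relative to the calmodulin mean CML31 stood at -2.37 ± 0.04 in KMD and -3.72 ± 0.05 in XS11 (log2 units, SD, n = 3 each), a shift of 1.35. CML20 shifted by 0.90, CML29 by 0.65, CML27 by 0.60 and CML13 by 0.36. CML24, CML5 and CML18 also lay higher without overlap, by 0.27, 0.24 and 0.11. Lower in every KMD array were CML4, by a shift of -0.55, CML8 (-0.29) and CML16 (-0.16). The lines overlapped for CML30 and CML10 on this measure. The calmodulin mean itself differed by -0.08 on the log2 scale (KMD minus XS11). Each shift is the log2 difference of the gene given above with this value taken off, so the sizes are not a separate result. The shifts show unequal change between CML and calmodulin signals. Without the bulk of the array as reference they do not show which of them moved.

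**Figure D3:**
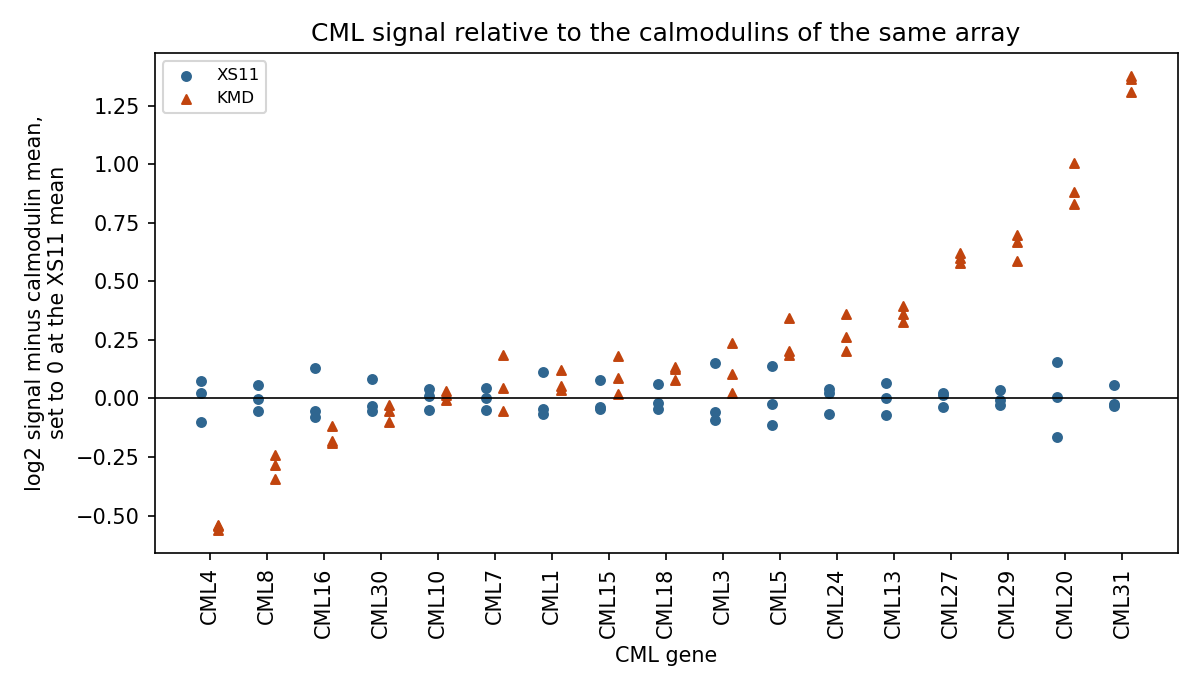
Log2 signal of each tested CML gene minus the mean log2 signal of the 3 calmodulins in the same array, set to 0 at the XS11 mean of each gene, with 1 point per array (blue circles, XS11; orange triangles, KMD). Genes are ordered by the shift, from -0.55 for CML4 to 1.35 for CML31, and the KMD and XS11 points of 11 of the 17 genes do not overlap.

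Other genes that sense calcium, or act on its signal, gave a setting for the family. Calcium-dependent protein kinases (CDPK) join a kinase to a calmodulin-like domain and so sense calcium themselves. Of 20 such genes on the array 15 were tested. Among these 10 fell, 1 rose and 4 did not pass, where 33.0% of all tested genes were called lower and 23.2% higher, and the median log2 difference was -0.33. CPK24 read 75.02 ± 2.53 (SD, n = 3) in KMD and 124 ± 7.09 in XS11, and its log2 difference was -0.64 (SE 0.07). A gene listed as both CPK7 and CPK11 read 213 ± 3.59 and 326 ± 12.3, a log2 difference of -0.59 (SE 0.05), and CPK1 rose by 0.19 (SE 0.05) but turned negative on the spike-in scale, where all 15 were called lower. After quantile normalization 2 were higher and 9 lower, and in the test against 1.2-fold 0 were higher and 4 lower.

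Autoinhibited calcium pumps (ACA), which calmodulin switches on to clear calcium from the cytosol, fell at each of the 3 genes tested of 5 on the array, against 33.0% called lower over all tested genes. ACA8 read 95.2 ± 4.05 in KMD against 161 ± 5.83 in XS11, and its log2 difference was -0.69 (SE 0.06). ACA10 read 270 ± 16.0 and 420 ± 20.8 (-0.62, SE 0.05). All 3 were also called lower with quantile normalization, median centring and spike-in centring, and in the test against 1.2-fold. CCaMK, a kinase that binds both calcium and calmodulin and acts in root symbiosis, read 114 ± 6.15 and 127 ± 6.67 and was not called (log2 difference -0.15, limma adjusted p = 0.099).

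The CBL calcium sensors and their CIPK kinases form the parallel branch. Of 5 tested CBL genes 3 rose and 0 fell, with CBL4 at 0.55 and CBL2 at 0.25 on the log2 scale, though on the spike-in scale 0 were called higher and 4 lower, and in the test against 1.2-fold 1 was higher. Of 23 tested CIPK genes 5 rose and 9 fell, with CIPK14 at 1.78, CIPK6 at 0.44, CIPK16 at -0.93 and CIPK2 at -0.90. The probe sets read for CIPK16 and CIPK2 are of the x_at type, which can take signal from related transcripts. CIPK2 has 3 probe sets, and only the brightest is given here. On the spike-in scale 1 CIPK gene was called higher and 21 lower. The shares called in both lists, 60% and 60.9%, are near the 56.2% of all tested genes. No gene with a probe set of its own was found by name for the calmodulin-binding CAMTA factors, IQD proteins, glutamate decarboxylases or cyclic nucleotide-gated channels, and these were not analysed here. All these lists share the 6 arrays with the calmodulin and CML genes.

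**Figure D4:**
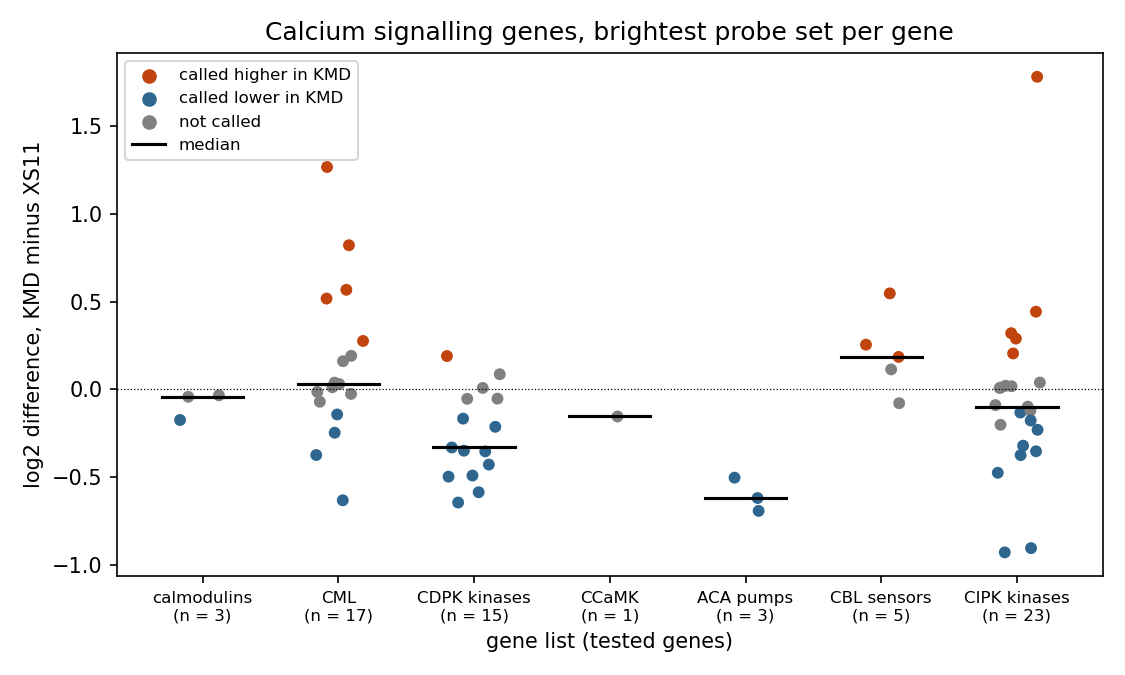
Log2 difference of KMD minus XS11 for each tested gene of 7 calcium signalling lists, read by its brightest probe set (orange, called higher; blue, called lower; grey, not called; black line, median; points are spread sideways only for sight). The 3 calmodulins lie near 0, the 17 CML genes spread to both sides, and the medians of the CDPK kinases (-0.33) and ACA pumps (-0.62) lie below 0; on the spike-in scale all lists have negative medians.

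The genes beside the members in the RefSeq order were read on the same arrays. The 10 called members had 12 directly adjacent genes with a probe set, of which 11 were tested and 5 called, 3 in the direction of the member. Over all tested genes 56.2% were called, and 5 of 11 is not above that share. The gene on one side of CML31, LOC4325407, fell by 0.40 on the log2 scale (SE 0.07, limma adjusted p = 0.00066), while CML31 rose. Both genes beside CAM3, which fell, were called, LOC4326904 at -0.37 and LOC4326902 at 0.17. LOC4341910, next to CML29, rose by 0.18 and was called. LOC4332733, next to CML27, rose by 0.63 (SE 0.06, limma adjusted p = 1.88e-06), and LOC4332730 on its other side gave -0.02 and was not called. The neighbours of CML16, LOC4325690 and the small heat shock gene HSP16.6, gave 0.09 and 0.06 and were not called.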

How the data were processed

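Leaf RNA was isolated with Trizol and labelled with biotin as cRNA by the standard Affymetrix method, per the labels. The authors deposited microarray intensity values on a linear scale, 1 per probe set and array, and the submitters' processing notes name MAS5. The version, scaling target and any later step are not stated in those notes. The table held 57381 probe sets, and all 6 columns were used. The platform annotation gave 22436 probe sets 1 gene, 95 several and 34850 none. Names came from the RefSeq table of assembly ASM3414082v1, where all 17905 genes were found.

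No normalization was added. The scale is log2(signal + 11.17), where the pseudocount is the 10th percentile of the table. The upper 60% of probe sets by mean log2 signal and all 64 reporter probe sets were tested, without the 123 control probe sets. The fit was limma 3.58.1 in R 4.3.3 (lmFit and a two-sided eBayes test with an intensity trend), with Benjamini-Hochberg adjustment over 34404 tests and no block, and it was tested on simulated data. Tables and figures were made with Python 3.11.15, pandas 2.3.3, numpy 2.4.6 and matplotlib 3.10.9.

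The members and lists were chosen with earlier results of these data known. Every member with a probe set of its own is named, and each other calcium list gives up to 2 called genes each way, by size, with no overlap between the lines. The ratios to the calmodulins, the adjacent genes and the probe sets of the same cluster were added after values were seen. The 3 arrays per line limit the precision. Each p-value sets a difference against the spread between these arrays, which eBayes draws toward that of probe sets of similar signal. The labels name no batch, so a batch and the line cannot be told apart. Planned protein and promoter features were not computed, and no sequences are shown.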

Additional observations from a re-analysis of the deposited data

How the results depend on the processing

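Alternatives to the scale were a pseudocount of 1 or 18.5 (the 25th percentile), quantile normalization, and centring on the median or the spike-ins. Alternatives to the test were no filter, only the upper 40% of signal, no intensity trend, array weights, a replicate block, limma against 1.2-fold, all probe sets of a gene, and leaving out each array. The 13660 called probe sets became 32924 with spike-in centring and 4102 in the test against 1.2-fold, and ran from 11856 to 13487 without 1 array. Spike-in centring gave 1 member higher and 16 lower, and the test against 1.2-fold gave 4 higher and 1 lower (CML4). Without 1 array, 5 members were higher each time and 4 or 5 lower. Of the 10 called members, 9 were called without each array in turn, the exception being CML30, which was also not called after quantile normalization or without the trend.

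Reversals with spike-in centring, which moves every gene down by construction, were CML3 (-0.58), CML5 (-0.46), CML13 (-0.35), CML15 (-0.61), CML18 (-0.59), CML24 (-0.43), CML27 (-0.10) and CML29 (-0.054). With quantile normalization 4 uncalled genes reversed, CAM1 (0.024), CAM2 (0.027), CML1 (0.018) and CML7 (0.041), and the cause was not tested. Without 1 array, uncalled differences near 0 changed sign for CAM2 (-0.067 to 0.018), CML1 (-0.052 to 0.025), CML3 (-0.018 to 0.097), CML7 (-0.10 to 0.040) and CML15 (-0.021 to 0.040).

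Numbers shared by replicates did not pair the samples: deviations of same-numbered arrays from their line means correlated at -0.24, -0.01 and -0.25. Those of differently numbered arrays correlated at -0.06 to 0.32, highest for KMD replicate 3 with XS11 replicate 1. Whether such arrays were handled together is not stated and was not tested. With the replicate block 12450 probe sets were called, and 5 members were higher and 5 lower. Dim probe sets limit what can be said of the 6 untested genes, and MAS5 detection calls were not used here.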
